A study of Mus musculus with 27 samples.

Results

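The TGF-beta and BMP ligands and activators described here are 10 genes, out of 37208 genes and transcripts measured on the arrays. The set holds the 3 TGF-beta ligands Tgfb1, Tgfb2 and Tgfb3, the BMP ligands Bmp2 and Bmp4, the activin subunit gene Inhba, the processing protease Bmp1, the latent TGF-beta binding protein genes Ltbp1 and Ltbp2, and Tgfbi, a gene named for its induction by TGF-beta. They were named by their biological role, not from a threshold on these measurements, and their probes were found through the RefSeq accession that the array files give for each probe. All 10 were on the array. However, Bmp1, Bmp2 and Tgfb were also among the genes that the study itself singled out on these same arrays as lower when AP-1 was blocked, so a lower value of these members with DOX is not independent evidence of that direction.

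The study asked how the AP-1 transcription factor family takes part in the formation of blood from mouse embryonic stem cells (ESCs). A dominant-negative FOS peptide (dnFOS), which binds JUN proteins and keeps them from DNA, was placed with a Flag tag at the Hprt locus of A2lox ESCs behind a promoter that responds to doxycycline (DOX). All 13 groups came from these dnFOS ESCs. Clones were picked after selection, the number of clones used is not given in the sources used here, and cells without the cassette were not exposed to DOX on these arrays. FLK1+ cells, which hold the hemangioblast, were purified from embryoid bodies and measured at 0 h or grown in blast culture for 5 h (FLK1+ 5h), 24 h (day 1 blast culture, d1 BC) or 48 h. The 5 h and 24 h cultures were complete and unsorted. The 48 h cultures were sorted into vascular smooth muscle (SM) cells, early hemogenic endothelium (HE1, KIT+ TIE2+ CD41-), late hemogenic endothelium (HE2, KIT+ TIE2+ CD41+) and hematopoietic progenitors (HP, KIT+ TIE2- CD41+). Each cultured population was grown without DOX or with 1 µg/ml DOX throughout its time in culture. There were 2 arrays in each group and 3 for untreated SM cells, 27 arrays in all, and the labels do not say whether replicates came from separate cultures, so p-values measure the spread between arrays, which may be technical.

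TGF-beta family ligands are secreted dimers that bring type I and type II serine/threonine kinase receptors together, after which the receptors phosphorylate SMAD proteins that enter the nucleus. TGF-beta is secreted in a latent complex with its own propeptide, which LTBP proteins tether to the extracellular matrix until it is released, whereas BMPs are held back by secreted antagonists. In the early embryo BMP4 is needed to form the mesoderm from which blood and vessels arise, and TGF-beta signaling promotes the differentiation of vascular smooth muscle.

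Levels are given throughout as log2 signal relative to the 75th percentile of the same array, so that 0 is the level of the 75th percentile and 1 unit is a doubling. Levels of different genes come from different probes and were not compared with each other. Between 48% and 89.7% of spots were well above background on an array, and the 75th percentile signal ran from 78.8 to 732. SM replicate 2 had the 89.7%. It also stood apart in its markers: the mean level of the endothelial list was 2.32 on that array against -1.27 and -1.34 on the other SM arrays, the fibroblast list was at -0.10 against 2.11 and 2.11, and SM with DOX replicate 2, from the same slide, was at 2.25 for the endothelial list against -1.26 for its partner. The main results of members in SM cells are therefore also given without both arrays, and the pathway lists are not. Hprt, where the cassette sits, was higher on every DOX array than on the untreated arrays of its population in all 6 populations, by 1.45 to 3.63 on the log2 scale.

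The promoters of 3 members are shown to set a ligand gene with its highest mean in HP cells, Tgfb1, beside a ligand gene and a response gene with theirs in SM cells, Tgfb2 and Tgfbi. Each line gives the 250 bases before a transcription start of the gene in RefSeq on build GRCm38.p6, read 5′ to 3′ on the strand of the gene, with a TATAAA match in capitals. Tgfb1 lies on the plus strand at chr7:25686752-25687001, Tgfb2 on the minus strand at chr1:186705990-186706239, upstream of one of its starts and not of the outermost, and Tgfbi on the plus strand at chr13:56609336-56609585.
Tgfb1: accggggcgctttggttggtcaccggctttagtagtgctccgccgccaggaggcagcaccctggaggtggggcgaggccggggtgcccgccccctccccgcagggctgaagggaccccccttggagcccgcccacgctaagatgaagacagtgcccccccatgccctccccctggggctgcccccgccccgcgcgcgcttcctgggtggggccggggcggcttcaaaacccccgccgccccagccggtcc
Tgfb2: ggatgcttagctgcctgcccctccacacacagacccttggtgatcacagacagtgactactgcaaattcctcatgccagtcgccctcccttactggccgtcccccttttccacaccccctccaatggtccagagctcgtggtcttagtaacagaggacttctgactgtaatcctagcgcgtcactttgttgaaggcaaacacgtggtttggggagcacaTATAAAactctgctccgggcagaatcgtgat
Tgfbi: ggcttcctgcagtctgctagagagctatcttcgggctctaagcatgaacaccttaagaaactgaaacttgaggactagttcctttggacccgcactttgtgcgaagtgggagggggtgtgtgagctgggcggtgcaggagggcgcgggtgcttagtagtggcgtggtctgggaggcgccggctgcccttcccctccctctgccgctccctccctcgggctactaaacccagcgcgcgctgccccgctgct
RefSeq windows of 300 bases, with 250 before and 50 after the start, were at hand for 7 of the 10 members and gave 8 windows, none of them for Tgfb3, Bmp1 or Bmp2. The AP-1 motif TGANTCA was found in 0 of the 8 windows on either strand, against 7.81% of 32851 windows of all genes, and the TEAD motif GGAATG in 0, against 14.7%. TATAAA, added after the windows had been read, was found in those of Tgfb2 and Inhba, against 13.6% of all windows. The window of Tgfb1 was 77.0% G or C, that of Tgfbi 63.3% and that of Tgfb2 54.3%. An absent match says only that these letters are not in this window.

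Tgfb1, Tgfb2 and Tgfb3 encode the ligands that signal through the TGF-beta receptors. Tgfb1 was lowest in the middle of the path to blood and highest at its end in the untreated populations. Its levels were 3.42 and 2.66 in FLK1+ cells, 2.61 and 2.50 after 5 h, 0.69 and 0.69 in d1 BC, 1.27 and 1.40 in HE1, 2.89 and 2.96 in HE2 and 3.78 and 3.67 in HP cells. SM cells were at 0.60, -0.51 and 1.41. All HP arrays lay above all others, and SM, d1 BC and HE1 held the lowest arrays. In the comparison of SM with HP cells, Tgfb1 was 9.36-fold lower in SM cells (log2 -3.23, SE 0.75, limma adjusted p = 0.0079).

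Tgfb2 was highest in SM cells and in the cultures. Its levels were 2.69 and 3.73 in FLK1+ cells, 5.00 and 5.02 after 5 h, 4.66 and 4.85 in d1 BC and 4.67, 5.16 and 5.34 in SM cells. They were 2.92 and 1.92 in HE1, -1.46 and -1.16 in HE2 and -0.90 and 1.48 in HP cells. The 5 h, d1 BC and SM arrays overlapped at the top, all HE1 arrays lay below them, and all HE2 arrays lay below all others. Tgfb2 was called in 4 of the 8 comparisons of untreated populations, more than any other member, and it ranked 108 of 27471 genes in the F test across them. It was 5.05-fold lower in HE1 than in d1 BC (log2 -2.34, SE 0.62, adjusted p = 0.0455) and 13.3-fold lower in HE2 than in HE1 (log2 -3.73, SE 0.62, adjusted p = 0.0029). It was 6.22-fold higher in SM than in HE1 cells (log2 2.64, SE 0.56, adjusted p = 0.0434, and log2 2.59, adjusted p = 0.032 without both slide 3 arrays of SM cells) and 27.3-fold higher in SM than in HP cells (log2 4.77, SE 0.56, adjusted p = 3.5e-05). A second probe of Tgfb2 gave 5.20 for SM minus HP, which passed. It had the same signs for HE1 minus d1 BC (-3.43, adjusted p = 0.115), HE2 minus HE1 (-3.85, adjusted p = 0.0981) and SM minus HE1 (2.88, adjusted p = 0.293), which did not pass. The calls of HE1 against d1 BC and SM cells were lost without 16 and 18 of the 27 arrays in turn, all 4 arrays of HE1 and d1 BC among the former and both HE1 arrays, SM replicate 1 and SM replicate 3 among the latter, with the highest adjusted p, 0.32 and 0.488, without HE1 replicate 2. Without HE1 replicate 1 the step to HE2 was -3.24 (adjusted p = 0.083). Tgfb2 did not pass the test between HE2 and HP (log2 1.60, adjusted p = 0.764).

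Tgfb3 levels were low in FLK1+ cells at -1.75 and -2.45, and in the 5 h culture at -1.58 and -2.41. They were 0.78 and 0.33 in d1 BC and 0.98, 0.77 and 1.56 in SM cells. In HE1 they were -0.25 and -1.77, in HE2 -1.26 and -1.97 and in HP cells -1.79 and -0.89. The d1 BC and SM arrays were the only ones of the untreated arrays above 0. Tgfb3 was 5.44-fold higher in SM than in HP cells (log2 2.44, SE 0.60, adjusted p = 0.0117), whereas the difference of 2.55 between d1 BC and the 5 h culture missed the threshold (adjusted p = 0.0629).

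Bmp2 and Bmp4 encode BMP ligands, which act through SMAD1, SMAD5 and SMAD8. Bmp4 was at 5.74 and 6.39 in FLK1+ cells, 5.25 and 5.46 after 5 h, 6.80 and 6.91 in d1 BC and 6.74, 5.79 and 7.10 in SM cells. It was at 5.21 and 3.18 in HE1, 3.56 and 3.44 in HE2 and 3.13 and 3.51 in HP cells. Every HE1, HE2 and HP array lay below every array of FLK1+ cells, cultures and SM cells. Bmp4 was 6.31-fold lower in HE1 than in d1 BC (log2 -2.66, SE 0.58, adjusted p = 0.0153) and 9.34-fold higher in SM than in HP cells (log2 3.22, SE 0.53, adjusted p = 0.0005). The call against d1 BC was lost without HE1 replicate 2 (log2 -1.64, adjusted p = 0.251) and without either d1 BC array. The difference of 2.35 between SM and HE1 cells missed the threshold (adjusted p = 0.0524). Without both slide 3 arrays of SM cells it was 2.73 and passed (adjusted p = 0.0093).

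Bmp2 was at 3.50 and 3.11 in FLK1+ cells, 4.84 and 4.01 after 5 h, 4.41 and 4.68 in d1 BC and 3.68, 3.91 and 3.32 in SM cells. It was at 2.45 and 3.48 in HE1, 1.74 and 2.50 in HE2 and -0.14 and 1.99 in HP cells. All arrays of the cultures lay above those of HE1, HE2 and HP cells, the HE2 arrays overlapped with those of both HE1 and HP cells, and the HP mean was the lowest. Of the 8 comparisons, only SM against HP passed for Bmp2, which was 6.55-fold higher in SM cells (log2 2.71, SE 0.67, adjusted p = 0.0126).

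Inhba encodes the beta A subunit, whose homodimer is activin A. It was well above background on 16 of the 27 arrays, among them no array of untreated FLK1+ or HE2 cells and 1 of the 2 untreated HP arrays. Where it was above background on all arrays its levels were -2.78 and -3.98 after 5 h, -0.09 and 1.22 in d1 BC, 1.55, 0.18 and 1.13 in SM cells and -1.28 and -3.96 in HE1. The d1 BC and SM arrays overlapped each other and lay above all others. Inhba was higher in SM than in HP cells by 4.83 (SE 1.07, adjusted p = 0.0056), with HP at -5.41, not well above background, and -2.35. It entered this test only through the SM arrays, where it was high, and the size of the difference is uncertain. HE2 had only a bound, with its mean at least 3.51-fold lower than that of HE1 (limma adjusted p = 0.329). HE1 replicate 2, at -3.96, lay below the lowest value well above background on HE2 replicate 1, -2.89. The size is therefore uncertain, and the difference was as small as -0.82 in an alternative.

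Bmp1, an astacin-family metalloprotease, is not a ligand despite its name: it cleaves procollagens and LTBP proteins and so takes part in the release of latent TGF-beta. Its levels were 3.52 and 3.37 in FLK1+ cells, 5.29 and 4.69 after 5 h, 6.06 and 5.25 in d1 BC and 4.73, 5.76 and 5.10 in SM cells. They were 5.75 and 6.15 in HE1, 4.51 and 3.72 in HE2 and 2.76 and 3.70 in HP cells. Bmp1 was thus the only member whose highest group was HE1, although HE1 overlapped with d1 BC and SM cells. It was 3.91-fold higher in SM than in HP cells (log2 1.97, SE 0.47, adjusted p = 0.0090). Its other probes gave 2.90, which passed, and 0.86, which did not. The difference of -1.84 between HE2 and HE1 missed the threshold (adjusted p = 0.07).

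LTBP1 binds the latent TGF-beta complex, whereas LTBP2 is a matrix protein of the same family that does not bind latent TGF-beta. Ltbp2 was at -4.73 and -4.92 in FLK1+ cells, the second not well above background, and at 0.53 and -0.81 after 5 h. It was at -1.04 and -1.85 in d1 BC, -3.01, -1.66 and -1.80 in SM cells, -2.43 and -1.85 in HE1, -2.05 and -2.99 in HE2 and -2.61 and -3.33 in HP cells. Both 5 h arrays lay above all other untreated arrays, and both FLK1+ arrays below them. The measured difference between 5 h and FLK1+ cells was 4.68 (SE 0.67, adjusted p = 0.0011), the only call of a member at that step, and it was 4.01 between the arrays that shared a slide. Ltbp2 entered this test only through the 5 h arrays, where it was high, and 1 of the 2 FLK1+ values was not well above background, so the size of the difference is uncertain.
Ltbp1 ran from -1.82, in the 5 h culture and in HE2, to 1.24, in SM cells, over all untreated arrays. It was the 1 member that the F test over the untreated populations did not call (adjusted p = 0.117), against a background of 17.8% of genes called. The other 9 were called, Inhba in part on values not well above background, in FLK1+ and HE2 cells.

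Tgfbi encodes a secreted matrix protein and serves as a marker of the TGF-beta response. It was at 0.36 and 0.03 in FLK1+ cells, 2.09 and 1.93 after 5 h and 1.75 and 1.61 in d1 BC. It was at 5.50, 2.68 and 5.47 in SM cells, 4.0 and 2.42 in HE1, 0.22 and 0.26 in HE2 and 1.57 and 1.64 in HP cells. SM replicates 1 and 3 lay above every other array, whereas SM replicate 2 lay within the HE1 range. Tgfbi was 7.70-fold higher in SM than in HP cells (log2 2.94, SE 0.91, adjusted p = 0.0482). Between SM cells and d1 BC the difference of 2.87 did not pass (adjusted p = 0.34). Without both slide 3 arrays of SM cells, a setting chosen after seeing the data, it was 3.80 and passed (adjusted p = 0.0046).

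**Figure D1:**
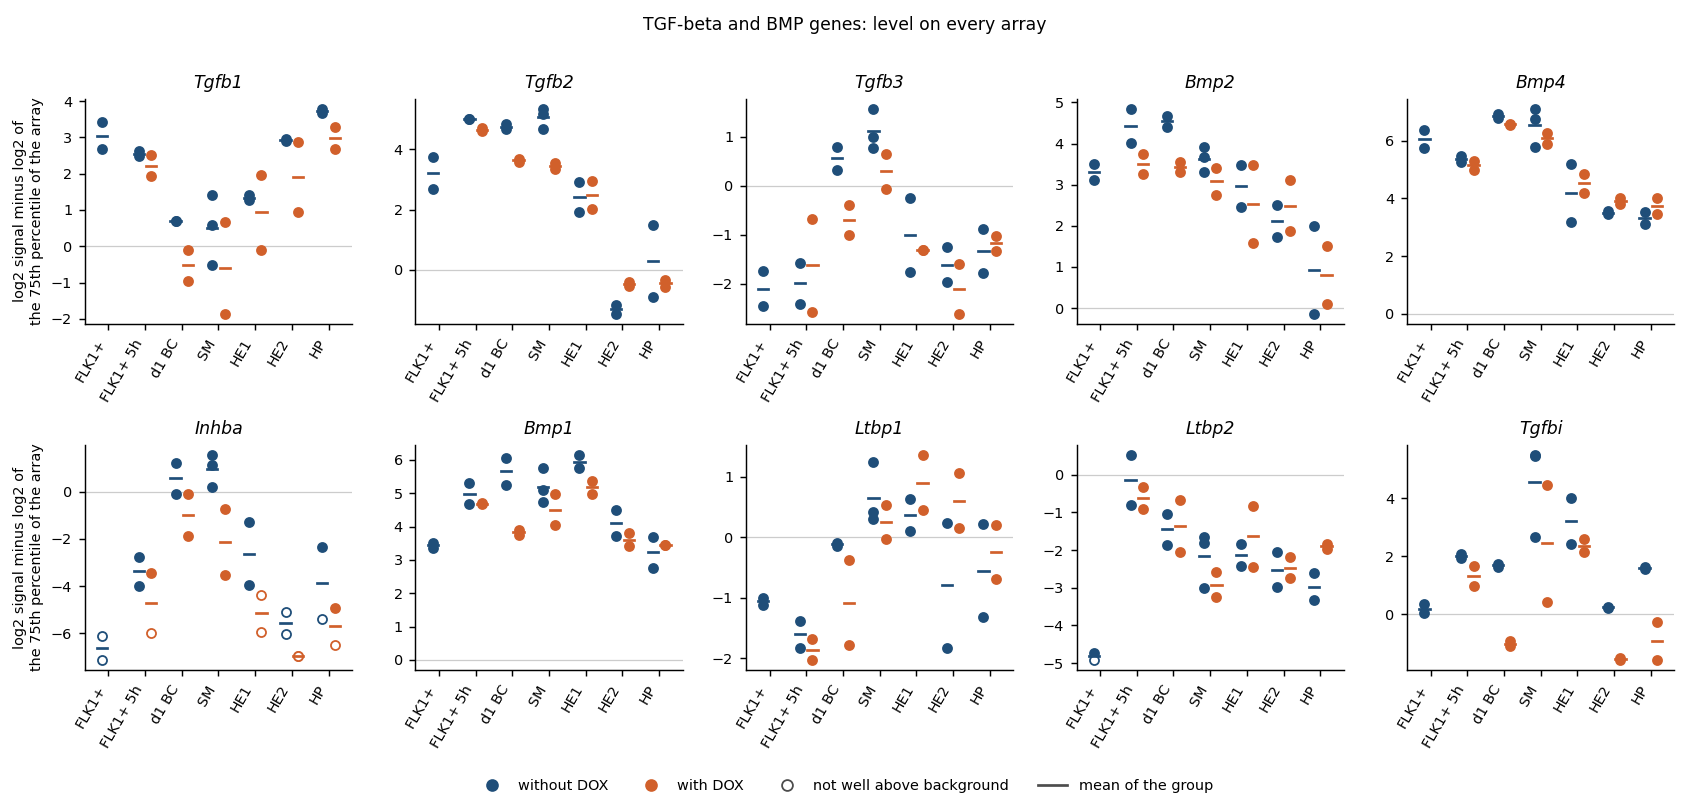
Levels of the 10 members on all 27 arrays, as log2 signal relative to the 75th percentile of the array, by population. Each point is an array, blue without and orange with DOX, open circles are arrays where the probe was not well above background, and short lines are group means. Tgfb1 was highest in untreated HP cells, at 3.78 and 3.67, and Tgfb2 in SM cells and cultures.

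Counted by comparison, the members were called 13 times over the 8 comparisons of untreated populations, which share groups with each other. From FLK1+ cells to the 5 h culture 1 of 10 was called, where 2.69% of all genes tested were. From the 5 h culture to d1 BC 0 of 10 were called by limma (background 1.39%), with 5 at an unadjusted p under 0.05, where 10.8% of genes had such a p. Between d1 BC and SM cells 0 were called (background 0.255%), with 1 at an unadjusted p under 0.05 (6.01%). Between d1 BC and HE1 2 of 10 were called, both lower in HE1 (background 3.17%). These groups shared no slide, so no difference could be taken within a slide there. SM cells shared slide 4 with d1 BC, where SM minus d1 BC was -0.17 for Tgfb2 and -0.16 for Bmp4. They shared slides 1 and 3 with HE1, where SM minus HE1 was 2.42 and 3.24 for Tgfb2 and 1.89 and 2.61 for Bmp4. Each of these is a difference between single arrays. From HE1 to HE2 1 of 10 was called (background 2.31%), between SM cells and HE1 1 (background 0.53%), and from HE2 to HP 0 of 9 (background 0.00394%), with 1 at an unadjusted p under 0.05 (5.94%). The smooth muscle and myeloid lists moved with both steps through HE1. The fibroblast list moved with the step to HE2, and its HE1 arrays lay on either side of d1 BC. The smooth muscle list was at 5.61 and 5.50 in d1 BC, 3.52 and 2.14 in HE1 and 0.96 and 1.09 in HE2. The fibroblast list was at -1.35 and -1.36 in d1 BC, 0.50 and -2.60 in HE1 and -3.40 and -4.05 in HE2, and on HE1 replicate 1, where it was high, Bmp4 and Tgfb2 were higher than on replicate 2. The myeloid list was at -2.77 and -2.94 in d1 BC, -1.62 and -1.17 in HE1 and 0.49 and 0.26 in HE2. Their part in the calls of Tgfb2 and Bmp4 was not tested.

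SM against HP cells was the comparison with the most calls. Of the 10 members 7 were called higher in SM cells and 1, Tgfb1, lower, against 9.36% of all genes tested (6.2% higher and 3.16% lower). The members called higher were Tgfb2, Tgfb3, Bmp1, Bmp2, Bmp4, Tgfbi and, tested only through its level in SM cells, Inhba. The median of the members was 2.58, against -0.15 over all genes tested. SM and HP cells shared slides 1 and 3, and each of the 8 differences had the same sign within both. Tgfb1 was at -2.37 and -4.18 on slides 1 and 3, Tgfb2 at 6.24 and 3.68, Bmp4 at 3.97 and 2.28, and Tgfbi at 3.9 and 1.05. Without both slide 3 arrays of SM cells all 8 stayed called, with Tgfb1 at -2.72, Tgfb2 at 4.72, Bmp4 at 3.60 and Tgfbi at 3.88. The differences were larger against HP replicate 1, with Tgfb2 at -0.90 against 1.48 on replicate 2 and Bmp2 at -0.14 against 1.99. Without it Bmp1 was at 1.5, Bmp2 at 1.65, Tgfb3 at 2.0, Inhba at 3.30 and Tgfb1 at -3.17, and the calls of Tgfb1, Tgfb3, Bmp1, Bmp2, Inhba and Tgfbi were lost, with adjusted p values from 0.09 to 0.367. The call of Tgfb1 was lost without HP replicate 2 too, that of Tgfb3 without SM replicate 3, and that of Tgfbi without 22 of the 27 arrays in turn. Tgfb2 and Bmp4 kept their calls whichever array was left out. Markers of cell types moved with this comparison. The smooth muscle list was at 0.55 on HP replicate 1 and 2.29 on replicate 2, where Tgfb2 and Bmp2 were higher too, against 4.65 to 4.95 in SM cells. The mean of the fibroblast list was -3.27 and -3.58 in HP cells, below all SM arrays, and the myeloid list was at 1.46 and 0.57 in HP cells, above SM cells at -2.72, -1.14 and -1.43. Their part in the members' differences was not tested. In bulk RNA of this kind, fewer cells of a type and less RNA per cell cannot be told apart.

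**Figure D2:**
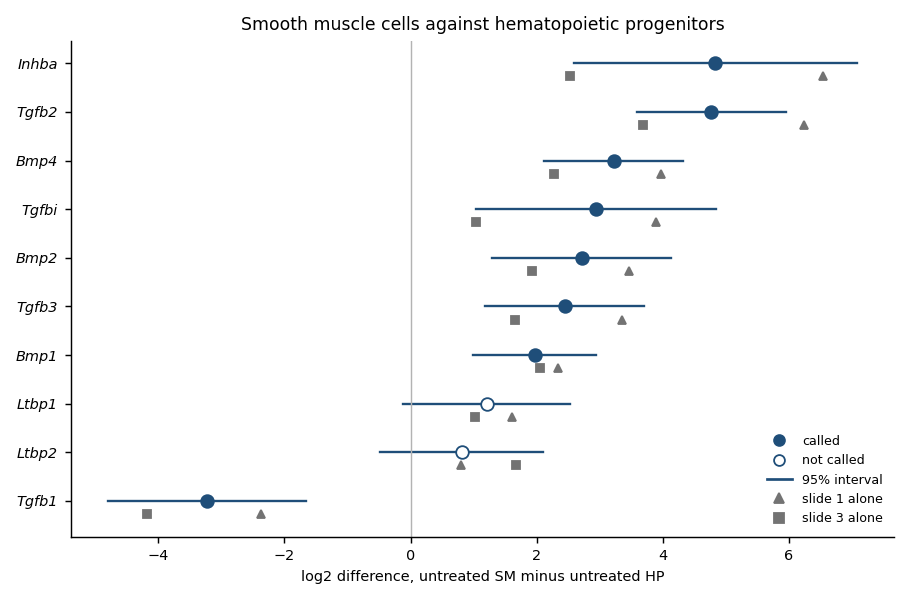
Difference between untreated SM and HP cells for each of the 10 members in log2, with 95% confidence intervals from limma as lines. Filled circles were called, open circles were not, and triangles and squares are the differences within slides 1 and 3. Of the members, 7 lie above 0 with an adjusted p under 0.05, Tgfb1 lies below at -3.23, and Ltbp1 and Ltbp2 were not called.

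DOX induction of dnFOS lowered no member past the threshold. Of 58 effects tested over the 6 populations limma called 0, and 7 had an unadjusted p under 0.05. Hardly any gene was called at all: the share was 0% in the 5 h culture, d1 BC, HE1 and HE2, 0.00839% in SM cells and 0.0318% in HP cells. At an unadjusted p under 0.05 there were 2 members in d1 BC, where 1.51% of all genes had such a p, 3 in SM cells (2.64%), 1 in HE1 (1.16%), 1 in HP cells (3.45%) and 0 in the 5 h culture (5.24%) and in HE2 (8.34%). The effects were below 0 for 42 of the 58 and above 0 for 16. By population, 9 of 10 were below 0 after 5 h, 9 of 10 in d1 BC, 10 of 10 in SM cells, 6 of 10 in HE1, 4 of 9 in HE2 and 4 of 9 in HP cells. The median of the members was -1.17 in d1 BC, against 0.13 over all genes, and -0.79 in SM cells, against 0.08. It was -0.35 in the 5 h culture, against 0.01, and -0.35 in HE1, against 0.09. In HE2 it was 0.06, against 0.11, and in HP cells 0.16, against 0.30. These counts and medians describe the members and carry no test of the set.

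In d1 BC, 9 of 10 members had a lower mean with DOX, under the 75th percentile and all 4 other scalings tried. Of these, 8 did not overlap between the DOX and the untreated arrays, where 9.74% of all genes were lower without overlap. Both DOX arrays of Bmp1 lay below both untreated ones, at 3.76 and 3.89 with DOX against 6.06 and 5.25 without. The effect was -1.83 (SE 0.51, 95% interval -2.90 to -0.76, unadjusted p = 0.0021, limma adjusted p = 0.9998), with -2.30 and -1.36 on the 2 slides that held both groups and -1.32 and -1.83 for its other probes. Tgfbi was at -1.10 and -0.94 with DOX against 1.75 and 1.61 without. The groups lay far apart compared with the spread within them, and the effect was -2.70 (SE 0.99, interval -4.79 to -0.62, unadjusted p = 0.014, adjusted p = 0.9998). Tgfb1 was at -0.10 and -0.95 with DOX against 0.69 and 0.69, and Tgfb2 at 3.68 and 3.59 against 4.66 and 4.85. Tgfb3 was at -0.40 and -1.0 against 0.78 and 0.33, and Bmp2 at 3.54 and 3.32 against 4.41 and 4.68. In all 4 genes both DOX arrays were the lower ones, with effects between -1.25 and -1.12. Bmp4, at 6.56 and 6.57 against 6.80 and 6.91, and Ltbp1, at -0.38 and -1.78 against -0.14 and -0.09, were also lower without overlap. Inhba overlapped, at -1.86 and -0.08 with DOX against -0.09 and 1.22, and Ltbp2 was at -0.67 and -2.04 against -1.04 and -1.85. The smooth muscle list differed little here, at 5.48 to 5.63 with DOX and 5.50 to 5.61 without, as did the fibroblast list, at -1.42 to -1.16 with DOX and -1.36 to -1.35 without. The endothelial list was at 0.08 to 0.16 with DOX and -0.16 to -0.12 without, and its part in these effects was not tested.

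In SM cells all 10 members had a lower mean with DOX, under each of these scalings, and 3 did not overlap (background 6.07%). Tgfb2 was at 3.56 and 3.35 with DOX against 4.67, 5.16 and 5.34 without. Both DOX arrays lay more than 1 unit below the lowest untreated one, and the effect was -1.61 (SE 0.56, interval -2.79 to -0.43, unadjusted p = 0.0104, adjusted p = 0.9988). The second probe of Tgfb2 gave -0.79. Inhba was at -0.76 and -3.55 with DOX against 1.55, 0.18 and 1.13, and the effect was -3.10 (SE 1.07, interval -5.35 to -0.85, unadjusted p = 0.0095, adjusted p = 0.9988). Without SM with DOX replicate 2 it was -1.71. Tgfb3 was at -0.06 and 0.65 against 0.98, 0.77 and 1.56. Tgfbi was at 4.45 and 0.43 against 5.50, 2.68 and 5.47, so its arrays overlapped, and its effect of -2.11 (unadjusted p = 0.0322) was -0.10 without that array. Within slides 3 and 4, Tgfbi differed by -2.25 and -1.04. Without both slide 3 arrays Tgfb2 was at -1.45, Tgfb3 at -1.33, Inhba at -2.09 and Tgfbi at -1.03. The smooth muscle list was lower here as well, at 3.96 to 4.63 with DOX and 4.65 to 4.95 without. So were the myeloid list, at -3.26 to -2.80 with DOX and -2.72 to -1.14 without, and the hematopoietic list, at -2.37 to -1.86 with DOX and -1.69 to -1.14 without. The fibroblast list went the other way on both shared slides, at 2.70 with DOX against 2.11 on slide 4 and 0.36 against -0.10 on slide 3. Their part in these effects was not tested.

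In HE1, HE2 and HP cells the number of members that were lower depended on the scaling. It was 6 to 8 of 10 in HE1, 2 to 6 of 9 in HE2 and 4 to 7 of 9 in HP cells. After 5 h, Tgfb2, Bmp2 and Tgfbi were lower without overlap (3 of 10, background 15.2%), with Bmp2 at 3.25 and 3.75 against 4.84 and 4.01. Replicate 1 with DOX and replicate 1 without shared no slide there. On the slide that held replicate 2 of both, Bmp2 differed by -0.26, Tgfbi by -0.28 and Tgfb2 by -0.32. In HE1 Bmp1, at 4.99 and 5.38 against 5.75 and 6.15, was lower without overlap. So were the measured values of Inhba, those with DOX not well above background (2 of 10 with Inhba counted, background 8.17%). Inhba was not well above background on either HE1 array with DOX, and a bound on the group means put it at least 3.57-fold lower than without. Untreated replicate 2, at -3.96, lay below the lowest value well above background on DOX replicate 1, -3.80. The size of the difference and the lack of overlap are therefore uncertain, and the effect was as small as -0.66 in an alternative. Inhba entered the test only through the untreated arrays, and it is the 1 member counted above for HE1 at an unadjusted p under 0.05. In HE2 Tgfb1 and Tgfbi were lower without overlap (2 of 9, background 15.5%), and Tgfb2 and Bmp4 higher (background 18.8%), Bmp4 with a sign that turned under quantile normalization (-0.050), normexp (-0.10) and in the authors' values (-0.12). Tgfb1 was there at 2.87 and 0.95 with DOX against 2.89 and 2.96 without, a difference of -0.017 on slide 1 and -2.01 on slide 3. Tgfb2 was at -0.39 and -0.53 with DOX against -1.46 and -1.16 without. In HP cells Tgfb1, at 2.68 and 3.27 against 3.78 and 3.67, and Tgfbi were lower without overlap (2 of 9, background 11.8%), and Ltbp2 was higher, at -1.85 and -1.96 against -2.61 and -3.33 (background 28.1%). Tgfbi was at -0.28 and -1.57 with DOX against 1.57 and 1.64, an effect of -2.53 (SE 0.99, unadjusted p = 0.0203, adjusted p = 0.988). Markers of blood cells were lower with DOX in both populations. The myeloid list, 4 to 6 of its 6 genes above background, was at -0.35 and -1.27 with DOX against 1.46 and 0.57 in HP cells, and at -0.71 and -2.17 against 0.49 and 0.26 in HE2. The hematopoietic list was at 1.98 and 2.13 against 3.04 and 2.86 in HP cells, and at 1.39 and 0.66 against 1.71 and 1.67 in HE2. Their part in the members' effects was not tested.

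Read by gene, Tgfbi and Tgfb1 had lower means with DOX in all 6 populations and Inhba in all 4 where it was tested, under each scaling. Inhba entered the tests of 5 h and HE1 only through the untreated arrays, with 1 of the 2 DOX arrays after 5 h and neither in HE1 well above background, so its count is no support for a direction. Tgfbi was at 0.062 after 5 h with scan day as a block, and Tgfb1 was at 0.17 in SM and 0.62 in HE1 cells without the DOX replicate 2 of that population. Tgfbi ran from -2.70 to -0.69 and did not overlap in 4 populations, Tgfb1 from -1.21 to -0.34 in 3. In HE2 the arrays of Tgfb1 were apart by just 0.017. Bmp1 and Bmp2 were lower in 5 of 6, Tgfb2 and Tgfb3 in 4, Bmp4 and Ltbp1 in 3 and Ltbp2 in 2. An F test over the 6 DOX effects called 0 of 10 members (background 0.0318%). Of these 3 had an unadjusted p under 0.05, Tgfbi (0.0106), Inhba (0.0219) and Bmp1 (0.0273), where 3.03% of all genes did. That of Inhba rests in part on values not well above background, in HE2 on both groups. Whether the effect in SM cells differed from that in d1 BC, HE1, HE2 or HP cells was tested in 38 differences. None was called by limma, where 0% of all genes were, and 1 had an unadjusted p under 0.05, where the shares of all genes were 0.371%, 0.243%, 1.8% and 1.46% in that order. Tgfb2 was lower with DOX in SM cells relative to HE2 by 2.46 (log2 -2.46, SE 0.84, unadjusted p = 0.0085, adjusted p = 0.9998).

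**Figure D3:**
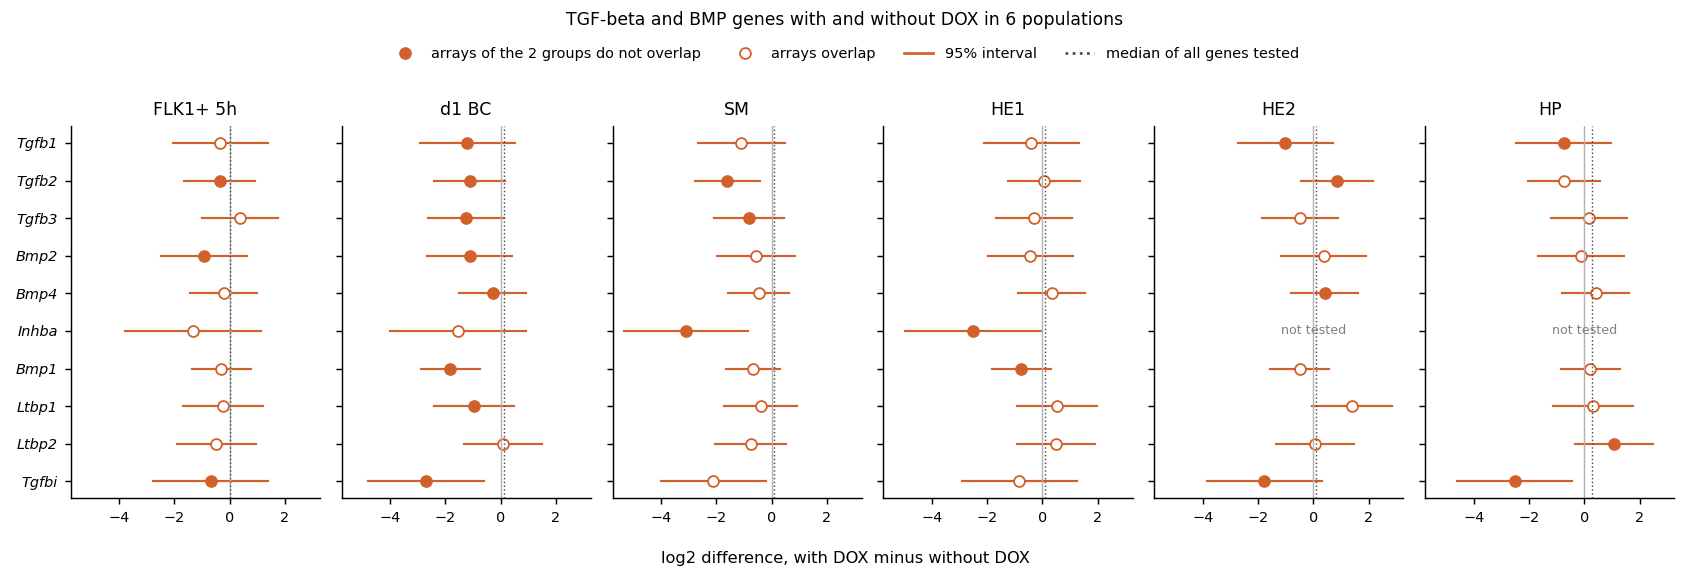
Effect of DOX (with minus without, log2) on each of the 10 members in the 6 populations, with 95% confidence intervals from limma; filled circles do not overlap between the groups' arrays, and the dotted line is the median of all genes tested. Bmp1 and Tgfbi in d1 BC, at -1.83 and -2.70, and Tgfb2 and Inhba in SM cells, at -1.61 and -3.10, are among the 7 effects with intervals below 0, and no effect passed after Benjamini-Hochberg adjustment.

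The other genes of the pathway were taken from 6 lists by role, and those named here for untreated populations were chosen after their values were seen. In SM against HP cells, 6.2% of all genes tested were called higher in SM cells and 3.16% lower. Of 19 other ligands tested 6 were higher in SM cells and 0 lower. Of these 6, 5 entered the test only through the SM arrays, where they were high. Bmp7 and Gdf6 were well above background on 1 of the 2 HP arrays, so the size of their difference is uncertain. Bmp5 and the activin subunit gene Inhbb were well above background on neither HP array and were at least 12.5-fold and at least 6.82-fold higher in SM cells. The median of the 19 other ligands tested was 0.97. Of 12 extracellular inhibitors 7 were higher and 0 lower, among them that of the activin-binding protein Fstl3 (3.88), with a median of 2.99. How many genes of this list and those that follow were tested only through their level in SM cells is not given here. Of 22 response genes 13 were higher and 0 lower, with Snai2, a transcription factor gene, at 5.25, and a median of 3.14. Acta2, Tagln and Cnn1 are in this list and among the smooth muscle markers too. Of 19 genes of latency and activation 9 were higher and 1 lower, which was Nrros, a gene of myeloid cells whose protein anchors latent TGF-beta, at -5.15. Among 11 receptors only the co-receptor genes Tgfbr3 (1.87) and Eng (-2.67) were called, and among 7 SMADs 0, with 0 at an unadjusted p under 0.05 as well.

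At the other steps, HE1 was higher than d1 BC for 4 of 11 receptors, Tgfbr2 (2.03), Tgfbr3 (2.34), Acvrl1 (4.57) and Eng (4.57), the last pair being receptors of endothelial cells. Of all genes 3.17% were called at that step in either direction. At the same step 2 other ligands, 1 inhibitor, 2 genes of latency and activation and 2 response genes were called lower and 1 response gene higher. From HE1 to HE2 1 other ligand, 2 inhibitors, 4 genes of latency and activation and 4 response genes were called lower, and 1 gene of latency and activation higher, against 2.31% of all genes. The endothelial list was at 2.97 and 3.98 in HE1 and -0.16 and -0.12 in d1 BC, and its part in these calls was not tested. With DOX, 0 of 520 effects on pathway genes were called and 25 had an unadjusted p under 0.05, where the share of all genes with such a p was 1.16% to 8.34% by population. They were split evenly in sign, 262 lower and 258 higher. The response list had a median of -0.10 in d1 BC and -0.28 in SM cells, where the members had -1.17 and -0.79. Among response genes Col1a1 was at -2.71 (SE 1.39) in d1 BC and was not called (limma adjusted p = 0.9998). In SM cells wide differences without overlap were those of the BMP antagonist gene Nbl1 (-2.21, adjusted p = 0.691) and of Gdf2 (2.18), in HE1 of Bmper (-2.41), and in HE2 of Bmp10 (-2.19) and Nbl1 (-2.02). In HP cells they were those of Acvr1b (-2.38) and Emilin1 (-1.98), and after 5 h of Chrd (2.30) and Inhbe (2.02), none of them called. Acvr1b and Bmp10 with DOX and Chrd without were well above background on 1 of 2 arrays, and Gdf2 on 2 of 3 untreated SM arrays, so the size of these differences is uncertain.

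**Figure D4:**
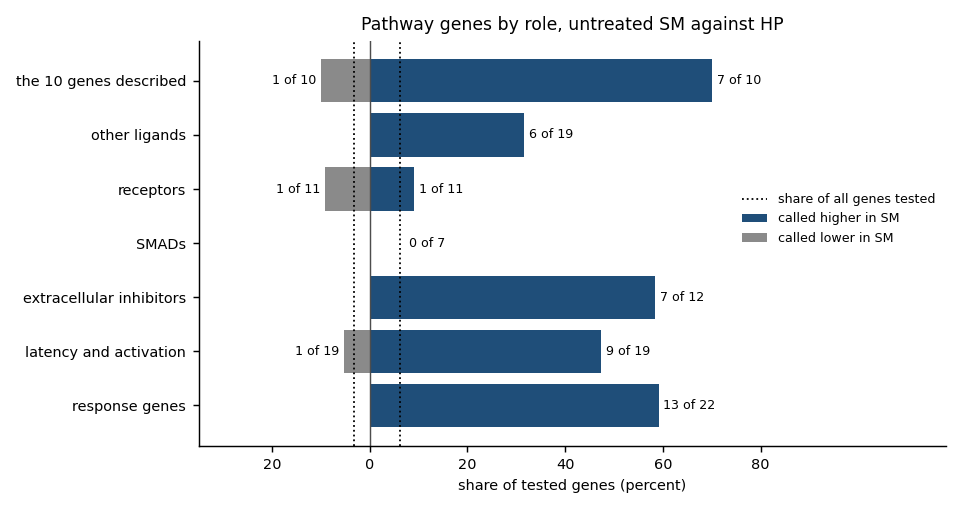
Percent of the tested genes of each role called higher (blue, to the right) or lower (grey, to the left) in untreated SM than in HP cells, with the counts beside the bars and the share of all genes tested as dotted lines (6.2% and 3.16%). Calls were higher in SM cells for 7 of 10 members, 7 of 12 inhibitors and 13 of 22 response genes, and 0 of 7 SMADs were called.

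The genes whose pattern was most like that of a member were ranked by Pearson correlation over the 13 group means among 16390 genes, as a description in which groups share slides. For Tgfb2 they were Prrx2 (0.978) and 1500009L16Rik (0.977), for Tgfb1 Parp10 (0.956) and Amz1 (0.937), and for Tgfb3 Crispld2 (0.947) and Tex14 (0.938). For Bmp4 they were Zfp941 (0.97) and Cbln1 (0.968), for Inhba Jdp2 (0.944) and 1700009N14Rik (0.942), and for Tgfbi Metrnl (0.93) and Ccl7 (0.909). Among the members themselves, Tgfb3 and Inhba (0.876), Tgfb2 and Bmp2 (0.851) and Tgfb2 and Bmp4 (0.845) were the most alike. Inhba was well above background on no array of 4 of these groups, so its values there have no order. Tgfb1 ran against Tgfb3 (-0.688), Bmp4 (-0.669) and Tgfb2 (-0.506).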

How the data were processed

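RNA was hybridised to 1-colour Agilent SurePrint G3 Mouse 8x60K arrays, 27 in all. Per the file headers, the deposited intensities came from Agilent Feature Extraction 10.7.1.1, which subtracted background from each spot to give the processed signal. The authors also deposited a table of log2 values for the same arrays, whose 27 columns each follow their own array and have medians of 5.98 to 6.00. It served as an alternative, and neither its exact scaling nor its centring is given in the sources used here.

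The log2 processed signal of the 59305 spots that are not controls was taken relative to the 75th percentile of the array, and spots of a probe were averaged. Of 55681 probes 26582 had a symbol through their RefSeq accession, and the probe with the highest mean stood for a gene. limma 3.58.1 under R 4.3.3 fitted the 13 group means together (14 residual and 4.27 prior degrees of freedom). Tested were genes that passed the scanner software's background call on each array of either group compared. A call needed a difference of at least 2-fold and p under 0.05 after Benjamini-Hochberg adjustment within the comparison. All adjusted p-values come from this model unless a setting is named.

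A group nowhere well above background was given only as a bound: the mean of the other group against, per array, the higher of the probe's own value and the lowest value of probes well above background. Untreated populations gave 8 comparisons, the successive steps of the culture and SM against HE1 and HP cells, and DOX gave 6. The members, lists and tests were chosen with earlier results of these data known. With DOX the pathway genes named were up to 2 per population with the largest difference among those whose arrays did not overlap, some of which are not reported here, and 22 of 24 response genes were on the array under the listed symbol. Alternatives were other scalings, filters, probes, blocks for replicate number, slide and scan day, array weights, and leaving out each array. Code was tested on simulated data. The number of arrays limits the precision.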

Additional observations from a re-analysis of the deposited data

Results flagged for a closer look

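In 4 cases both DOX arrays of one population lay below its untreated arrays and both DOX arrays of another lay above. For Tgfb2 in SM cells and HE2 the difference was tested and was not called (log2 -2.46, limma adjusted p = 0.9998). The effect of DOX on Tgfb2 after 5 h minus that in HE2 was -1.22, and in d1 BC minus that in HE2 it was -1.98. For Bmp4 the effect in d1 BC minus that in HE2 was -0.69. The last 3 differences were not tested, and that of Bmp4 rests on a sign in HE2 that turned with the scaling.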

How the results depend on the processing

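No member was called with DOX, in the tests of the difference between populations or in the F test over DOX under any alternative run. The 13 calls between untreated populations, and the 79 of pathway genes, numbered 8 members with median scaling, 8 members and 52 genes where both groups had to be above background, 20 and 126 with array weights, and 3 and 22 with a fit of just the pair of groups. Pathway calls were 122 in the authors' values and 122 with slide as a random block. Leaving out each array gave 7 to 15 member calls, with 7 without HP replicate 1, 53 to 90 pathway calls, and 7 to 10 members in the F test over untreated populations (9 with all arrays). With the replicate number as a block there were 11 and 80 calls. The difference between replicates 1 and 2 with DOX correlated with that without, over genes, at 0.27 to 0.63 in 5 populations and at -0.11 after 5 h. With 2 pairs a population and no label that gives the number a meaning, the numbers were not taken as pairs. Crossing the numbers at 5 h, chosen after seeing the data, gave 10 and 76. Of the other settings chosen after seeing the data, leaving out both slide 3 arrays of SM cells gave 18 and 97, and both slide 1 arrays of HE2 cells 9 and 65.

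Of the 74 values followed one by one, signs turned for Bmp4 in HE2 with DOX (-0.10 with normexp, -0.050 with quantile normalization, -0.12 in the authors' values), for HE1 minus d1 BC with median scaling (Tgfb1 -0.10, Ltbp1 -0.26), and with scan day as a block for Tgfbi (0.062 for DOX after 5 h, 0.43 for d1 BC minus 5 h). Of the 63 other tested values of members, 39 turned sign in at least 1 alternative. Median scaling put the median of all genes between -0.68 and 0.63 with DOX and at -0.67 for HE1 minus d1 BC. The cause of these changes was not tested. Of the 13 calls, 12 were lost in at least 1 alternative other than leaving out an array, and 10 without at least 1 array. With 2 arrays in most groups, a missed threshold says little about smaller differences.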
